A study of Mus musculus with 4 samples.

Results

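Immunoglobulin and plasma cell genes were followed in the dermal white adipose tissue (dWAT) of old and young mice. The set held 10 of the 22913 features in the expression tables, and 4 of the 10 had a value above 0 in at least 1 library. Its members were the listed genes whose symbols mark immunoglobulin variable or constant genes, together with Jchain, Mzb1 and Mouse_newGene_2691, a locus that the authors list outside the gene annotation. Mouse_newGene_2691 was chosen by its measured values, since it was already known to be among the features most raised in the old libraries, so its age differences describe the choice and carry no independent support.

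The dWAT, the fat layer under the dermis that surrounds the base of the hair follicles, had been microdissected from C57BL/6 mice, and total RNA was sequenced. There were 4 libraries, 1 for each of old telogen dWAT (OTD), young telogen dWAT (YTD), old anagen dWAT (OAD) and young anagen dWAT (YAD). Telogen is the resting phase of the hair cycle and anagen the growth phase, which here had been induced by depilation. Old mice were 18 months and young mice 2 months of age, as the sample titles and the treatment description give them, whereas the age field of the labels gives 18 months for YTD and 2 months for OAD. With 1 library per group, no test between groups could be made, no spread between animals is known, and no p-value is given. Fewer cells of a type and less RNA per cell cannot be told apart in bulk tissue.

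An antibody is built of heavy chains and light chains, and each light chain is either kappa or lambda. In a developing B cell, recombination joins a variable gene to a short joining segment, and the messenger RNA then splices the joining segment to the constant gene of the locus. Plasma cells are the antibody-secreting end stage of the B lineage, and most of their messenger RNA can be immunoglobulin. The J chain encoded by Jchain links IgA or IgM units into polymers, and Mzb1 encodes a chaperone of the endoplasmic reticulum in B cells and plasma cells.

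Mouse_newGene_2691 spans the joining segments and the constant gene of the kappa light chain. It lies at chr6:70722580-70726959 on the plus strand of GRCm38, with a span of 4380 bases and a listed length of 564 bases. In GENCODE M21, its span takes in the last 20 of the 38 bases of Igkj1, all of Igkj2, Igkj3, Igkj4 and Igkj5, and 525 of the 532 bases of Igkc, all on the same strand. The locus begins 18 bases inside Igkj1 and ends 7 bases before the end of Igkc. These overlaps are with the span. Which stretches make up the listed 564 bases is not given in the sources used here, and 564 bases cannot hold all of the overlaps. The lincRNA gene Gm30211, of 21481 bases, covers the whole interval on the same strand. Neither Igkc nor any Igkj segment has a row of its own in the tables, so this locus is the measure of the kappa constant region used here.

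The 5 joining segments are shown because they place the start of the locus. Each is the coding segment 5′ to 3′ from the GENCODE M21 transcripts, and capitals mark the bases that lie inside the span of Mouse_newGene_2691.
Igkj1: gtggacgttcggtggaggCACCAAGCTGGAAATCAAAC
Igkj2: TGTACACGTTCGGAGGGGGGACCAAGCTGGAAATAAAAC
Igkj3: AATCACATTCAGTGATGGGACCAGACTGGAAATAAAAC
Igkj4: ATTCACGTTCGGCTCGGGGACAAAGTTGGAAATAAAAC
Igkj5: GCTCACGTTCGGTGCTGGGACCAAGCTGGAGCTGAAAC
The segments were 68.4% (Igkj1 and Igkj3) to 82.1% (Igkj1 and Igkj2) identical in pairwise alignment. Igkj1 is cut by the start of the locus, and the other 4 segments lie whole within its span.

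The opening 90 coding bases of the kappa constant gene Igkc and of the lambda constant gene Iglc2 are shown because these genes carry the light chain values. Capitals mark the bases inside the span of Mouse_newGene_2691. Igkc is shown from chr6:70726435-70726524 on the plus strand, and Iglc2 from chr16:19198764-19198853 on the minus strand.
Igkc: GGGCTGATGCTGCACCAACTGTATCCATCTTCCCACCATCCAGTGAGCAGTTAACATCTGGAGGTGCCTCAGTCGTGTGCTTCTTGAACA
Iglc2: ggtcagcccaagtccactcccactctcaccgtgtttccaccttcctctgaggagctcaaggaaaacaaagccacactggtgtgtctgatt
Over their coding sequences of 320 and 315 bases, Igkc and Iglc2 were 56.3% identical. Iglc2 was 96.2% identical to Iglc3, with 303 identical bases, and 73.8% identical to Iglc1. Fragments of Iglc2 and Iglc3 may therefore not have been separated by the authors' mapping, and the value of Iglc2 is uncertain for that reason.

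**Figure D1:**
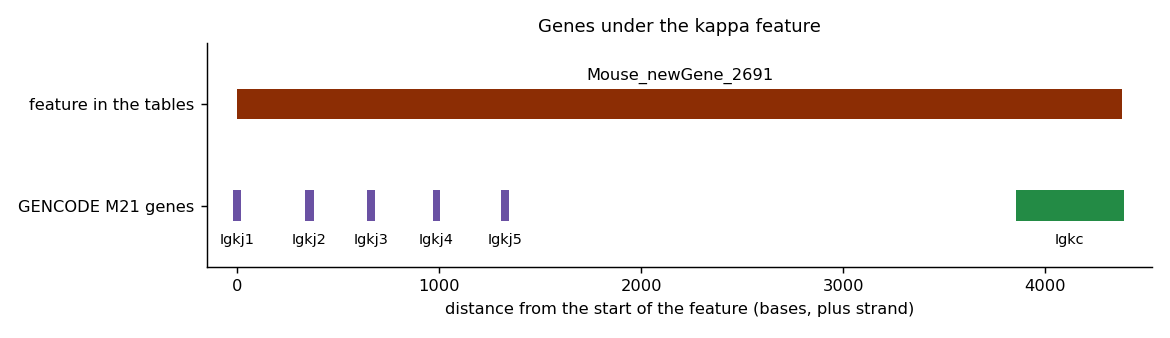
Map of the locus Mouse_newGene_2691 (upper bar) and the GENCODE M21 genes under it (lower bars, Igkj1 to Igkj5 and Igkc), with the distance in bases from the start of the locus on the horizontal axis. The locus runs from inside Igkj1 to 7 bases before the end of Igkc.

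Mouse_newGene_2691 was the most abundant member in every library, and it was higher in old than in young dWAT in both phases of the hair cycle. Its FPKM (fragments scaled to the length of the feature and to the mapped fragments of the library) was 27.5 in OTD and 3.77 in YTD, and in anagen 7.36 in OAD and 0.690 in YAD. The old telogen library was thus the highest and the young anagen library the lowest, and old anagen lay above young telogen. These values rest on roughly 307, 40, 101 and 7 fragments, estimated from the steps of the FPKM values in each library. The library OTD was 7.28-fold above YTD (95% counting interval of the ratio 5.20 to 10.3), and OAD was 10.7-fold above YAD (4.88 to 26.6). The intervals cover counting error only, on rough fragment numbers, and say nothing of the differences between mice.

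On the scale of log2(FPKM + 1), the old minus young difference of Mouse_newGene_2691 was 2.58 in telogen and 2.31 in anagen. It ranked 14 from the top among 17230 features above 0 in telogen and 5 from the top among 17613 in anagen. A feature was counted as higher or lower where this difference was at least 1 in size. Of the 10 members, 1 was counted as higher in OTD than in YTD, where 1.67% of all features above 0 were higher and 1.93% lower. In OAD against YAD, 1 member was counted as higher, where 0.727% of all features were higher and 0.454% lower. In both phases this member was Mouse_newGene_2691, and no member was counted as lower in old dWAT. Since the locus was chosen on these contrasts, nothing is read from these counts.

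The same locus was lower in anagen than in telogen at both ages. In old mice OTD was 3.73-fold above OAD (2.96 to 4.70), and in young mice YTD was 5.46-fold above YAD (2.37 to 14.2). Anagen minus telogen was -1.77 in old and -1.50 in young mice on the log2(FPKM + 1) scale. The 2 members counted as lower in anagen in old mice were Mouse_newGene_2691 and Iglc2, beside 16.1% of all features counted as higher and 15.6% as lower. In young mice the same 2 members were counted as lower, beside 16.1% of features higher and 16.7% lower. The threshold was thus passed by about 1 feature in 3 in the phase comparisons, far more than in the age comparisons.

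**Figure D2:**
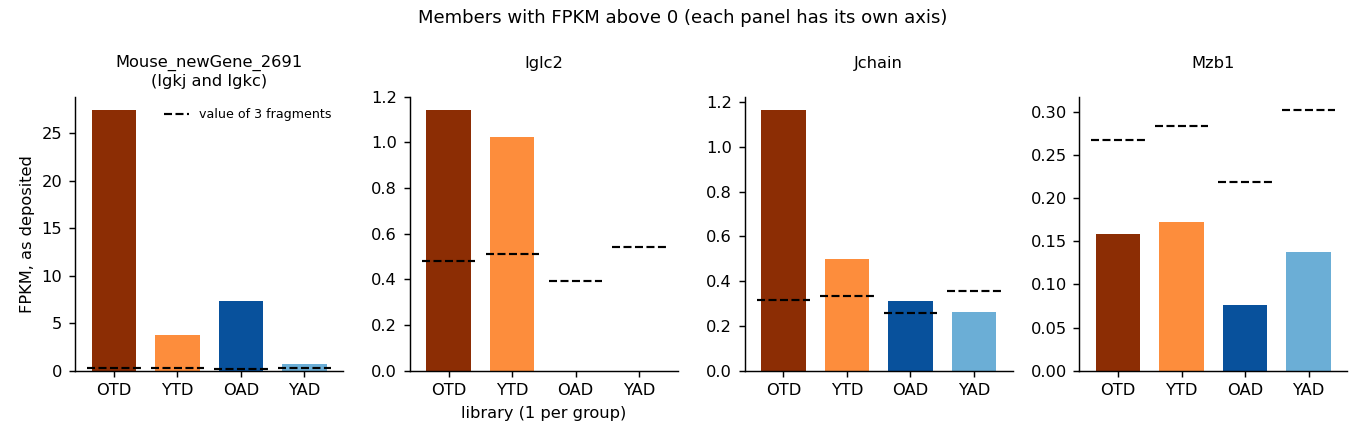
FPKM of the 4 members above 0 in the 4 libraries, 1 library per bar, each panel with its own axis from 0. Dashed lines mark the value of 3 fragments in that library. Mouse_newGene_2691 runs from 0.690 in YAD to 27.5 in OTD, Iglc2 is at 0 in both anagen libraries, and Mzb1 lies under its line in each library.

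Iglc2, the lambda constant member (ENSMUSG00000076937, chr16:19198401-19200351, minus strand, listed length 315 bases), was above 0 in the telogen libraries only. Its FPKM was 1.14 in OTD, 1.02 in YTD and 0 in both OAD and YAD. The telogen libraries held roughly 7 and 6 fragments of it, and OTD stood at 1.12 times YTD (0.317 to 3.97). A count of 0 allows 3 fragments, which is 0.393 FPKM in OAD and 0.544 FPKM in YAD. Set against these floors, with the telogen values taken as exact, Iglc2 was 2.91-fold lower in OAD than in OTD and 1.88-fold lower in YAD than in YTD. These are not lower bounds, since the counting error of the few telogen fragments is left out.

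The share of the kappa locus in the FPKM of kappa locus and Iglc2 together was 96.0% in OTD and 78.6% in YTD. In the anagen libraries it was 100% by the listed values. With Iglc2 at its floor it would be 94.9% in OAD and 55.9% in YAD, so the depth of the young anagen library leaves the share undetermined over a wide range. Counted in estimated fragments, the share was 97.7% in OTD (exact 95% interval 95.5 to 99.1) and 86.8% in YTD (73.7 to 95.1). The other lambda constant genes of the annotation were not analysed here.

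Jchain (ENSMUSG00000067149, chr5:88520512-88527891, minus strand, listed length 480 bases) was measured at 1.17 FPKM in OTD and 0.500 in YTD, against 0.312 in OAD and 0.261 in YAD. The order by phase and age was that of telogen above anagen, with the old library above the young in each phase. OTD was 2.33-fold above YTD, with a counting interval of 0.770 to 11.2 that includes equal levels. OTD was 3.73-fold above OAD, with an interval of 0.997 to 14.5. The value in YAD lay under that of 3 fragments (0.357 FPKM), so no fold is given for OAD against YAD. On the log2(FPKM + 1) scale the old minus young difference was 0.53 in telogen and 0.06 in anagen, and neither reached the threshold.

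The kappa variable genes were at 0. Igkv4-54, Igkv4-62, Igkv4-69 and Igkv4-71, which GENCODE M21 annotates as variable genes, and Igkv1-115 and Igkv13-87, annotated as pseudogenes, had an FPKM of 0 in OTD, YTD, OAD and YAD. A count of 0 allows up to 0.356 to 0.595 FPKM for Igkv1-115 and the 4 Igkv4 genes, and up to 1.36 FPKM for the short Igkv13-87 feature. Igkv4-54, Igkv4-62 and Igkv4-71 were 93.1% to 94.5% identical to each other, so fragments of 1 could be shared with the others. GENCODE M21 holds 432 immunoglobulin genes and pseudogenes on this build, of which 8 were matched to a feature by identifier. The rest were not analysed here, and the 6 variable members therefore say little about which variable genes the kappa transcripts carried.

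The FPKM summed over the 10 members was 29.9 in OTD and 5.47 in YTD, and in anagen 7.75 in OAD and 1.09 in YAD. The old library was above the young by 2.45 in telogen and 2.83 in anagen as log2 of the ratio of sums, and anagen was at -1.95 in old and -2.33 in young mice against telogen. Mouse_newGene_2691 held 91.8%, 69.0%, 95.0% and 63.4% of these sums in the same order. Without it the sums were 2.47, 1.70, 0.389 and 0.399, and the log2 ratio of old to young was 0.54 in telogen and -0.04 in anagen. The anagen sums without it rest on Jchain and Mzb1, at values near or under that of 3 fragments. The age difference of the sum was therefore that of the kappa locus, while the lower level in anagen was also seen in the sum of the other members.

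Mzb1 (ENSMUSG00000024353, chr18:35647266-35649367, minus strand, listed length 567 bases) was near the limit of detection. Its FPKM was 0.159 in OTD and 0.172 in YTD, against 0.0764 in OAD and 0.138 in YAD, in each library under the value of 3 fragments, which lay between 0.219 and 0.302. A difference in Mzb1 was not detectable at this depth, and no fold is given.

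The heavy chain constant genes were overlapped by 1 feature with a value above 0. Of the 747 loci that the authors list outside the annotation, 4 overlap immunoglobulin or T cell receptor genes, and Mouse_newGene_2691 is one of them. Mouse_newGene_632 (chr12:113258725-113429934, minus strand) spans 171210 bases with a listed length of 1905 bases. It covers Ighm, Ighd, Ighg3, Ighg1, Ighg2b, Ighg2c and Ighe whole, part of Igha, and the joining segments Ighj1 to Ighj4. Which stretches make up its 1905 bases is not given in the sources used here, so isotypes were not separated. Whether its value comes from constant gene exons is not known either, so it is not a sure measure of heavy chain transcripts. Mouse_newGene_632 is not a member by the rule, and the loci other than Mouse_newGene_2691 were looked up after the values were seen.

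Mouse_newGene_632 was measured at 36.1 FPKM in OTD and 43.8 in YTD, and in anagen 15.8 in OAD and 12.2 in YAD. Its level was above that of the kappa locus in every library, and it did not share the age pattern of the kappa locus. OTD stood at 0.824 times YTD (0.765 to 0.886) and OAD at 1.29 times YAD (1.14 to 1.46), whereas the kappa locus stood at 7.28 and 10.7 times. It shared the phase pattern, since OTD was 2.28-fold above OAD (2.09 to 2.50) and YTD 3.59-fold above YAD (3.22 to 4.01). With the locus added to the 10 members, the log2 ratio of the summed FPKM of old to young was 0.42 in telogen and 0.82 in anagen.

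The 2 loci over T cell receptor genes gave a comparison for antigen receptor loci of another lineage. Mouse_newGene_969, over Trdj1, Trdj2 and Trdc of the delta chain, had an FPKM of 0.829 in OTD, 0.388 in YTD and 0 in both anagen libraries. Mouse_newGene_2684, over Trbj2-3 to Trbj2-7 and Trbc2 of the beta chain, was measured at 1.47 FPKM in OTD and 0.617 in YTD, against 3.92 in OAD and 5.02 in YAD. The beta chain locus was thus higher in anagen, where the kappa locus was lower. The delta chain locus and the summed FPKM of 11 T cell genes (5.86, 3.86, 1.74 and 1.71 in OTD, YTD, OAD and YAD) were lower in anagen. OTD was 2.39-fold above YTD for the beta chain locus (1.29 to 4.68), and OAD stood at 0.781 times YAD (0.600 to 1.02).

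**Figure D3:**
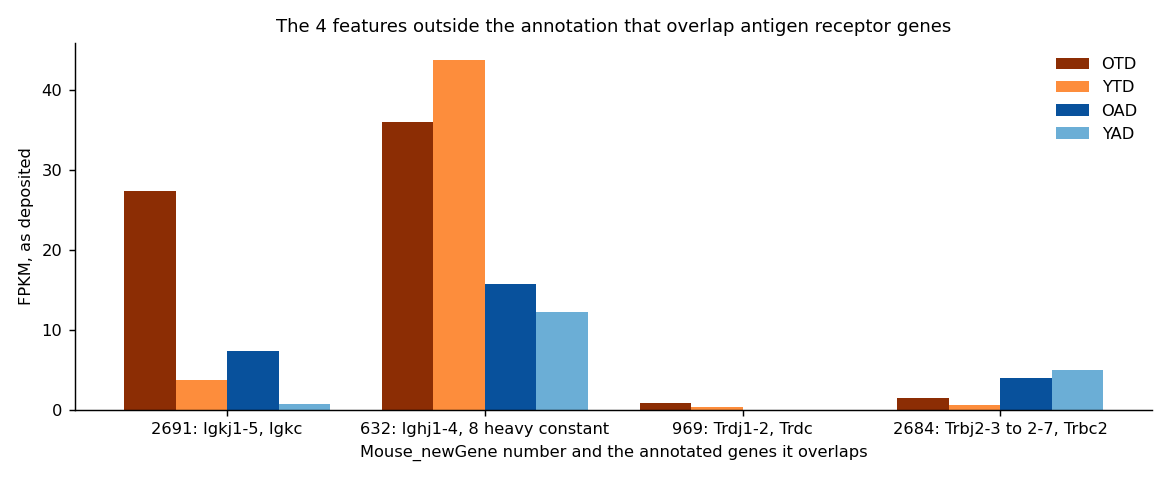
FPKM of the 4 loci outside the annotation that overlap antigen receptor genes, by library, on a linear axis from 0. The kappa locus (Mouse_newGene_2691) is highest in OTD at 27.5, the heavy chain locus (Mouse_newGene_632) is highest in YTD at 43.8, and the beta chain locus (Mouse_newGene_2684) is highest in YAD at 5.02.

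Slamf7 was the only listed plasma cell gene counted by age. In a list of 20 plasma cell genes, 1 was counted as higher in OTD than in YTD and 0 as lower, with a median difference of 0.09 on the log2(FPKM + 1) scale beside a median of -0.03 over all features above 0. The 1 gene was Slamf7, a receptor of the SLAM family on plasma cells and other immune cells, with an FPKM of 3.06, 0.922, 0.143 and 0.0961 in OTD, YTD, OAD and YAD. In anagen 0 of the 20 were counted in either direction, with a median of 0.07 beside 0 over all features, and this median was -0.04 after conversion to TPM. Of all features above 0, 1.67% were higher and 1.93% lower in old telogen dWAT, and 0.727% and 0.454% in anagen. These shares apply to the age counts of the lists below. Genes under 1 FPKM in both libraries cannot be counted, so the counts say little of low genes.

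Tnfrsf17 and Tnfrsf13b, receptors for survival factors on plasma cells, were low and highest in OTD. Tnfrsf17, which encodes the receptor BCMA, was measured at 1.90 FPKM in OTD and 0.722 in YTD, and in anagen 0.0941 in OAD and 0.0830 in YAD. Tnfrsf13b, which encodes the receptor TACI, had an FPKM of 1.88, 0.631, 0.119 and 0.285 in the same order. Both were above the value of 3 fragments in the telogen libraries, while Tnfrsf17 was under it in both anagen libraries and Tnfrsf13b in 1 library. Their old minus young differences in telogen were 0.75 and 0.82 on the log2(FPKM + 1) scale, under the threshold. Of other listed surface proteins, Cd38 was also highest in OTD, at 7.19, 5.11, 1.70 and 1.03 FPKM in the same order. Cd27 was at 0.542 FPKM in both telogen libraries. Ly6c2 was highest in YTD, at 8.13, 10.1, 0.488 and 0 FPKM in OTD, YTD, OAD and YAD. By any amount, 14 of the 20 listed plasma cell genes were higher in OTD than in YTD and 6 lower.

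Among the transcription factors of plasma cell differentiation, Prdm1 and Irf4 did not have the order of the kappa locus. Xbp1 followed that order except between YTD and OAD. Prdm1, which encodes Blimp-1, was measured at 0.865 FPKM in OTD and 0.592 in YTD, against 17.1 in OAD and 12.8 in YAD. Xbp1, a regulator of the unfolded protein response, had an FPKM of 78.8, 72.5, 64.6 and 63.3, and Irf4 had 2.71, 3.88, 1.09 and 1.47. Pou2af1, a B lineage coactivator, was at 0.263 in OTD and at or below 0.0907 in the other libraries. Prdm1 and Xbp1 are also expressed by cells outside the B lineage, and Prdm1 was higher in anagen, where the kappa locus was lower.

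Sdc1, which encodes the plasma cell surface protein CD138 and is also made by epithelial cells, was measured at 18.2 FPKM in OTD and 17.8 in YTD, and in anagen 196 in OAD and 168 in YAD. Txndc5, a disulfide isomerase, had an FPKM of 32.0, 32.5, 95.5 and 78.9 in the same order. Prdx4, a peroxidase of the endoplasmic reticulum, had 28.8, 16.2, 17.1 and 20.8. It was lower in anagen in old mice and higher in young mice, so in old mice not all listed genes of the secretory path were higher in anagen. Of the 20 listed genes, 6 were counted as higher in anagen and 5 as lower in old mice, against 6 and 2 in young mice. Over all features the shares were 16.1% higher and 15.6% lower in old mice, and 16.1% and 16.7% in young mice. The median difference between phases was -0.26 in old mice, where it was 0.10 after conversion to TPM, and 0.06 in young mice.

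In a list of 20 B cell genes, 10 were under the value of 3 fragments in every library. Ms4a1, which encodes CD20, was at 0.0222 in OTD and 0 in the other libraries, and Pax5, the factor that holds B cell identity, was at 0.0871 in OTD and 0 in the others. Cd79a and Cd79b, which encode the signalling chains of the B cell receptor, were at 0.260 and 1.09 in OTD, and at 0.183 and 0.243 in YTD. Cd79b was above the value of 3 fragments in all 4 libraries, with 0.153 in OAD and 0.221 in YAD. Cd22, an inhibitory receptor of B cells, was at 0.411 in OTD and 0.0441 in YTD, against 0.0143 in OAD and 0 in YAD, and was above that value only in OTD. Other listed genes had other orders. In OTD, YTD, OAD and YAD, Tnfrsf13c had 0.0332, 0.0351, 3.31 and 3.21 FPKM, and Bach2 had 0.290, 0.304, 1.84 and 2.15. Blnk had 2.40, 1.46, 7.48 and 7.13, and Cd72 had 12.0, 20.4, 6.05 and 5.02. By any amount, 13 of the 17 listed genes above 0 in telogen were higher in OTD and 4 lower.

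In the list of B cell genes, 0 were counted as higher or lower with age in either phase. A gene under 1 FPKM in both libraries cannot reach the threshold, so the count carries no information on the low genes of this list. The medians were 0.09 in telogen and 0.02 in anagen, the latter negative in 3 of 4 other scalings. Between phases, 3 were counted as higher in anagen and 1 as lower in old mice, against 3 and 2 in young mice. All features gave shares of 16.1% higher and 15.6% lower in old mice, and 16.1% and 16.7% in young mice. The listed genes that reached an FPKM above 5 in a library were Blnk, Cd37 and Cd72, which other blood cells also express. Among 8 genes of V(D)J recombination and class switching, 7 were under the value of 3 fragments in every library, Rag1 and Rag2 included, and Ung, a repair enzyme of dividing cells, was at 3.13, 8.43, 9.08 and 13.0 FPKM in OTD, YTD, OAD and YAD.

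**Figure D4:**
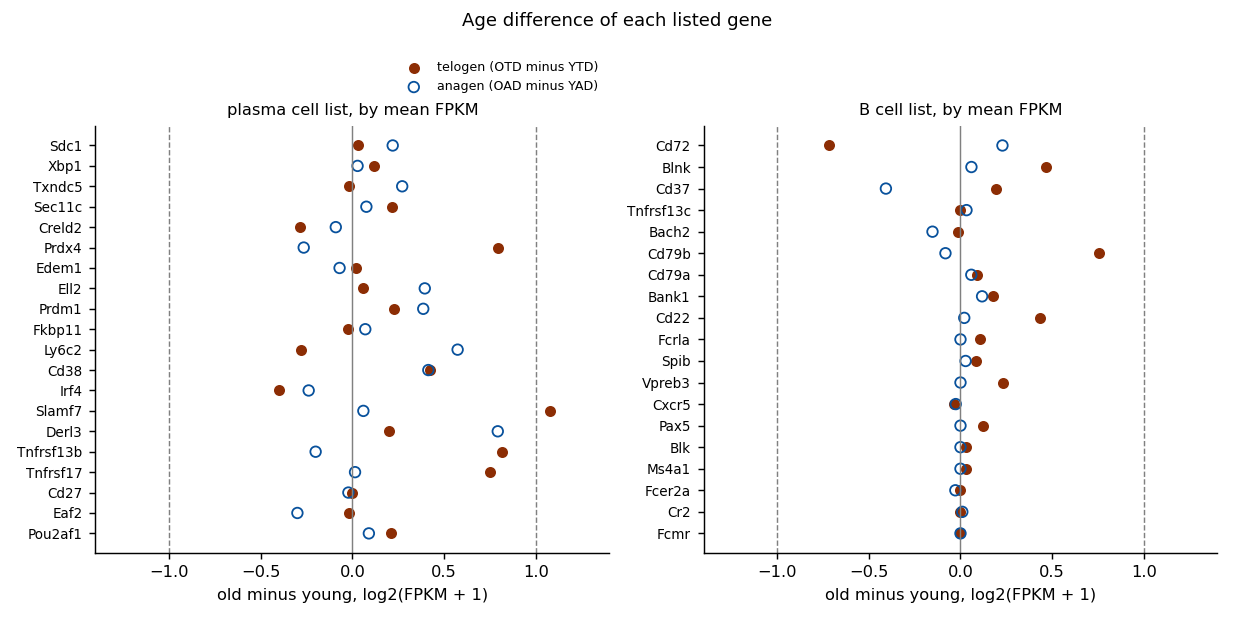
Old minus young difference of log2(FPKM + 1) for each of 20 plasma cell genes (left) and 19 B cell genes (right), in telogen (filled) and anagen (open), ordered by mean FPKM. Dashed lines mark a difference of 1 in size, which only Slamf7 in telogen passes, at 1.08.

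The summed level of receptors and carriers of antibodies was highest in OTD. In a list of 11 such genes, 1 was counted as higher in OTD than in YTD and 0 as lower, with a median of 0.43, and in anagen 0 were counted, with a median of -0.08. Their summed FPKM was 240.0 in OTD and 169 in YTD, against 41.9 in OAD and 48.5 in YAD. Fcgrt, which encodes the neonatal Fc receptor that recycles IgG, had an FPKM of 109, 81.0, 23.5 and 26.2 in this order. Fcgr3, an activating receptor for IgG on myeloid cells, had 29.4, 15.5, 3.52 and 3.87. The list was lower in anagen by at least 1 for 7 of 11 genes in old and 6 of 11 in young mice, and 0 were higher. Of all features, 15.6% were lower in old and 16.7% in young mice, and 16.1% were higher at each age. Named after their values were seen, Fcamr, a receptor for IgA and IgM, and Pigr, which carries polymeric IgA and IgM across epithelia, had higher values in the anagen libraries. Fcamr was at 0 in both telogen libraries, 0.648 FPKM in OAD and 0.493 FPKM in YAD, and Pigr was at 0, 0.0133, 0.107 and 0.173 FPKM in OTD, YTD, OAD and YAD.

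Signals for the survival and homing of plasma cells were given by 17 genes. In telogen, 1 was counted as higher in old dWAT and 1 as lower, with a median of 0.13, and in anagen 0 were counted, with a median of 0.05. Cxcl12, the stromal chemokine that holds plasma cells in bone marrow niches, was measured at 145 FPKM in OTD and 84.3 in YTD, and in anagen 45.6 in OAD and 32.0 in YAD. Its receptor gene Cxcr4 had 9.15, 4.76, 5.52 and 3.50, so both were above in the old library of each phase. Ccl27a, a listed chemokine gene of higher mean FPKM than Cxcr4, had 15.7, 24.1, 24.3 and 19.6, and so was lower in OTD than in YTD. Named after its values were seen, Il6 was the gene counted as higher in OTD, with an FPKM of 6.19, 0.225, 0.0470 and 0 in the same order. Ccl25, a chemokine of the gut and thymus, was the gene counted as lower, at 1.26 in OTD and 5.42 in YTD.

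Markers of other cells in the dissected tissue moved with age and phase, and their part in the values of the kappa locus was not tested. The summed FPKM of 12 macrophage genes was 838 in OTD and 515 in YTD, against 108 in OAD and 137 in YAD. For 7 red blood cell genes it was 749, 602, 367 and 226. Of the macrophage genes 12 were above the value of 3 fragments in OTD, YTD and YAD and 11 in OAD. In telogen, 1 macrophage gene was counted as higher in old dWAT and none of the red blood cell genes, with medians of 0.35 and 0.27, and in anagen the medians were -0.26 and 0.68 with 0 counted. The macrophage sum thus followed the kappa locus by phase and in telogen by age, but was lower in OAD than in YAD, where the kappa locus was 10.7-fold higher. Lyz2 gave the largest part of this sum, at 472, 237, 39.5 and 47.6 FPKM in OTD, YTD, OAD and YAD. By any amount, 11 of the 12 macrophage genes were higher in OTD than in YTD and 1 lower.

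The summed markers of lymph nodes followed the order of the kappa locus except between YTD and OAD. The summed FPKM of 7 genes of lymph node stroma and high endothelial venules was 59.4 in OTD and 19.8 in YTD, and in anagen 6.76 in OAD and 4.14 in YAD, mostly from Ccl21a, a chemokine of lymphatic vessels and lymph node stroma, at 52.3, 16.0, 3.95 and 2.85. Chst4, an enzyme of high endothelial venules, was at 0 in every library, and Glycam1, a secreted marker of these venules, was at 0.722 in OTD and 0 in the others. Of these 7 genes, 1 was counted as higher in OTD than in YTD with a median of 0.56. In anagen 0 were counted and the median was 0.28. The summed FPKM of 11 T cell genes was 5.86, 3.86, 1.74 and 1.71, with 0 counted by age in either phase and medians of 0.14 in telogen and 0.07 in anagen. T cell genes under 1 FPKM in both libraries could not be counted.

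Summed markers of skeletal muscle, fat and hair shaft differed between the phases. The summed FPKM of 12 skeletal muscle genes was 68347 in OTD and 107010 in YTD, against 16283 in OAD and 12207 in YAD. For 12 adipocyte genes it was 8147, 6838, 2854 and 2012. Genes of hair shaft and epidermis summed to 74.5, 151, 11398 and 11179 over 12 genes. The medians by age were -0.63, 0.17 and -0.84 in telogen and 0.28, 0.31 and 0.04 in anagen for muscle, adipocyte and hair shaft genes, the last negative in 3 of 4 other scalings. Mitochondrial genes held 52.7%, 44.7%, 18.3% and 14.4% of all FPKM.

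**Figure D5:**
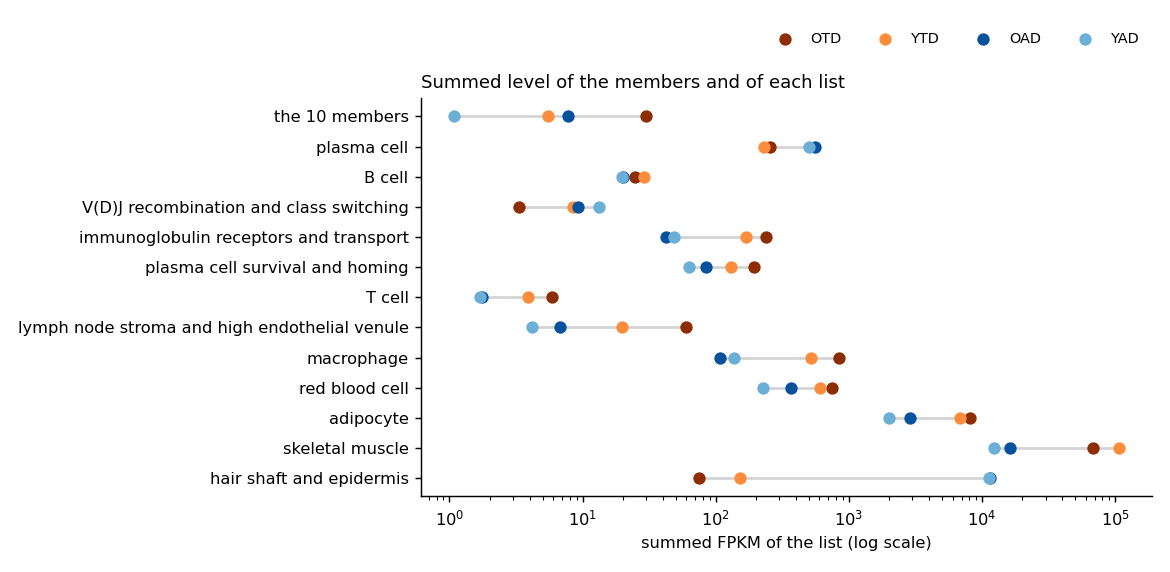
Summed FPKM of the 10 members and of each gene list in the 4 libraries, on a log axis, with a grey line from the lowest to the highest library. The members run from 1.09 in YAD to 29.9 in OTD, while the plasma cell list is highest in OAD at 554 and the B cell list stays between 19.6 and 29.1. These sums rest largely on a few abundant genes that are also expressed outside the B lineage, so they are not measures of plasma cells or B cells. Examples are Sdc1 at 196 and Xbp1 at 64.6 in OAD, and Cd72 at 20.4 and Cd37 at 6.08 in YTD.

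The age difference of the kappa locus was of like size under each of 4 other scalings of the libraries. These were TPM, size factors from the median of ratios, and TPM with mitochondrial genes, or mitochondrial and skeletal muscle genes, left out of the total. OTD was then 7.26 to 8.49-fold above YTD and OAD 9.09 to 10.8-fold above YAD. The phase difference depended more on the scaling, with telogen 2.43 to 4.63-fold above anagen in old mice and 3.04 to 5.46-fold in young mice. The heavy chain locus stood at 0.821 to 0.960 times in OTD against YTD and at 1.10 to 1.31 times in OAD against YAD.

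Over all features, 11 were counted as higher in old dWAT in both phases, Mouse_newGene_2691 among them, and 6 of the 11 were also counted as lower in anagen at both ages. The other 5 were Atf3, Cytl1, H2-Q6, Plac8 and Sorbs2, which were named after their values were seen. None of these is an immunoglobulin gene, and H2-Q6 encodes a class I protein of the major histocompatibility complex. The comparisons share libraries, so these counts describe the 4 libraries and nothing is read from the overlap.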

How the data were processed

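RNA sequencing measured gene expression in 4 dWAT libraries (OTD, YTD, OAD and YAD, with 1 library in each group), and groups were taken from the sample titles. The authors deposited FPKM for 22913 features per library, with the position and length of each feature. The submitters' processing notes name bcl2fastq, TopHat2 and GRCm38. The tool that gave the FPKM, the annotation, any scaling between libraries and the strand setting are not given in the sources used here. The study harvested dWAT of many mice for each group, and how their RNA was combined into 1 library is not given in the sources used here.

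Of 22166 Ensembl identifiers, 21750 were matched to a symbol, and 747 features are loci outside the annotation. The members and gene lists were chosen with earlier results of these data known. FPKM were used as deposited, and differences were taken as log2(FPKM + 1), which understates the change of low features. A feature with a value above 0 in either library was counted when the difference was at least 1 in size. A feature under 1 FPKM in both libraries therefore could not be counted. Constant region members above 0, Jchain, Mzb1 and Mouse_newGene_2691 were named, as were the 5 highest variable members per class and the 5 largest differences by age in each direction among members. Genes of the plasma cell and B cell lists could be named, and up to 4 of highest mean FPKM in other lists. Some listed genes are not reported here by name, and they stay in the counts of their lists.

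Read counts were not used here. FPKM times length of features of 2000 to 4000 bases gathers at the value of 1 fragment, which gave rough depths of 17500000 (YAD) to 24200000 (OAD) fragments. A floor is the FPKM of 3 fragments in that library. Intervals are exact binomial, at 95%, on fragments estimated in this way. Overlaps and sequences came from GENCODE M21, with sequences aligned by Biopython 1.88. Python 3.11.15 was used, with scipy 1.17.1, pandas 2.3.3 and numpy 2.4.6, and the counting step was tested on simulated data.

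Alternatives were other scalings, pseudocounts of 0.1 and 0.01, a filter at an FPKM of 1, a threshold of 1.5, fragments in place of FPKM, and sums without Mouse_newGene_2691. The sum with Mouse_newGene_632 was added after seeing the data.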

Additional observations from a re-analysis of the deposited data

Results flagged for a closer look

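The old minus young difference of log2(FPKM + 1) had opposite signs in the phases for both loci named here, and with 1 library per group this contrast was not tested. For the heavy chain locus Mouse_newGene_632 it was -0.27 in telogen and 0.35 in anagen, and the anagen difference was 0.62 above that of telogen. For the beta chain locus Mouse_newGene_2684 it was 0.61 in telogen and -0.29 in anagen, and the contrast of anagen less telogen was -0.90.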

How the results depend on the processing

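Without Mouse_newGene_2691, which is also the member of highest mean FPKM, the log2 ratio of summed FPKM was 0.54 for old against young in telogen, -0.037 in anagen, where it turned in sign, and -2.67 for anagen against telogen in old mice. With Mouse_newGene_632 added, the log2 ratio was 0.42 in telogen, 0.82 in anagen and -1.49 between phases in old mice. For anagen against telogen in old mice it was also -1.33 by TPM, and -2.26 by TPM without mitochondrial and skeletal muscle genes. The count of members past the threshold was 2 with a pseudocount of 0.1 or 0.01 for old against young in telogen, where Jchain was added. Between phases it was 1 in old and 0 in young mice at a threshold of 1.5, and 1 in each age by TPM. The other 42 recomputed values kept their direction and stayed within the counting interval or within 1.5 times the count. Among all features, the shares counted as higher and lower were 3.81% and 1.57% for old against young in telogen by TPM without mitochondrial genes, and 3.60% and 2.04% with skeletal muscle genes left out too. In anagen they were 0.590% and 0.994% by TPM, 0.749% and 1.04% without mitochondrial genes, and 0.784% and 1.04% with skeletal muscle genes left out too. For anagen against telogen they were 27.8% and 8.48% in old and 33.4% and 7.23% in young mice by TPM, which moved the median of all features to 0.32 and 0.45, and 14.2% and 22.9% in old mice without mitochondrial and skeletal muscle genes. No paired analysis was possible because each group has 1 library, and isotype shares were not run, since no heavy chain constant gene is among the members. The depth limits Mzb1, Jchain in YAD and Iglc2 in anagen.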
